A study of Homo sapiens with 36 samples.

Results

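Atirmociclib and AU2-94, both inhibitors of the cell cycle kinase CDK4, were set directly against each other at 1 µM after 72 h in LNCaP, a long-established prostate cancer line of human origin. The contrast compared 6 of the 36 libraries of the series. They were the 3 libraries of cells given atirmociclib at 1 µM for 72 h and the 3 of cells given AU2-94 at 1 µM for 72 h. The fit behind it took its gene filter and its spread from all 18 libraries of 72 h. Those include cells given another inhibitor, ribociclib, at 2 µM. The test of change with time was fitted on all 36 libraries. The 3 vehicle libraries of 72 h are quoted for reference, and no test against them is given here. Their label carries a dose of 2 µM, the dose of the highest drug groups. The 6 libraries each of both agents at 2 µM for 72 h and at 1 µM for 24 h were used to see whether the differences recurred. The 24 h cells were seeded more densely than the 72 h cells, so time and seeding density cannot be told apart. All groups are of the same line, and the series labels each replicate number as a batch.

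CDK4, with a D-type cyclin, phosphorylates the retinoblastoma protein RB1. This releases E2F transcription factors, which switch on genes for DNA synthesis, and later in the cycle B-MYB and FOXM1 switch on genes for mitosis. Replication-dependent histone mRNAs are made almost only while DNA is copied and end in a stem-loop instead of a poly(A) tail. In LNCaP, androgens drive secretory genes such as KLK3, which encodes prostate-specific antigen.

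Values are the normalised counts that the authors deposited, which divide each library's counts by its own scaling factor, so the number of sequenced reads behind them is unknown. The normalised totals were 22024631 to 22176824 with atirmociclib, 20910659 to 21049552 with AU2-94 and 21436280 to 21617499 with vehicle. Genes of the mitochondrial genome took 7.75% to 8.17% of the normalised counts with atirmociclib, 7.22% to 7.35% with AU2-94 and 6.76% to 7.42% with vehicle. All 19 genes of the prostate luminal lineage list were at 10 or more in the 6 libraries. Of 14 basal epithelial markers, 4 were at 0 in all 6 libraries and their summed level was 842 to 1146 with atirmociclib and 891 to 1051 with AU2-94. Of the 16 stromal and immune markers in the table, 4 were at 0 in all 6 libraries, and the sum was 1493 to 1575 with atirmociclib and 1018 to 1055 with AU2-94. Within that sum, the von Willebrand factor gene VWF had means of 688 with atirmociclib and 338 with AU2-94. Of the 20 neuroendocrine markers in the table, 6 were at 0 in all 6 libraries, and the sum was 1562 to 1597 with atirmociclib and 1401 to 1683 with AU2-94. The part of other cell types in the results was not tested.

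The difference between the agents was small beside their joint difference from vehicle. In log2 expression over the tested genes, the Euclidean distance between an atirmociclib and an AU2-94 library was 68.6 to 74.3. Libraries of 1 agent lay 59.7 to 68.2 apart. Distances to the vehicle libraries were 91.9 to 97.5 for atirmociclib and 86.9 to 91.5 for AU2-94.

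Which genes differ between the agents was answered with limma on log2(normalised count + 1), over 16341 genes. A gene is called here when its Benjamini-Hochberg adjusted p was at most 0.05 and its difference was at least 1 on the log2 scale. Positive differences mean higher with atirmociclib. By this rule, 21 genes were higher (0.129% of those tested) and 73 were lower with atirmociclib (0.447%). On the adjusted p alone, 741 genes were higher (4.53%) and 605 lower (3.7%), and the median difference over all genes was 0.0037. The genes past the adjusted p were thus close to evenly divided, but the lower ones differed more, with a median of -0.51 against 0.29 for the higher ones. All 94 called genes had groups that did not overlap, which a call with 3 libraries per group nearly requires. On the adjusted p alone, this held for 737 of the higher and 602 of the lower genes. Of all tested genes, 15% had every atirmociclib library above every AU2-94 library and 12.7% had the reverse. The division depended on the scaling. With the libraries brought to equal totals, 335 genes were higher and 1063 lower on the adjusted p, and the calls were 16 and 89. With quantile normalisation, the calls were 29 and 54. Without atirmociclib replicate 2, only 8 genes were called higher, and 57 lower. The count past the adjusted p and higher was 466 without atirmociclib replicate 2, 469 without atirmociclib replicate 3 and 487 without AU2-94 replicate 3.

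**Figure D1:**
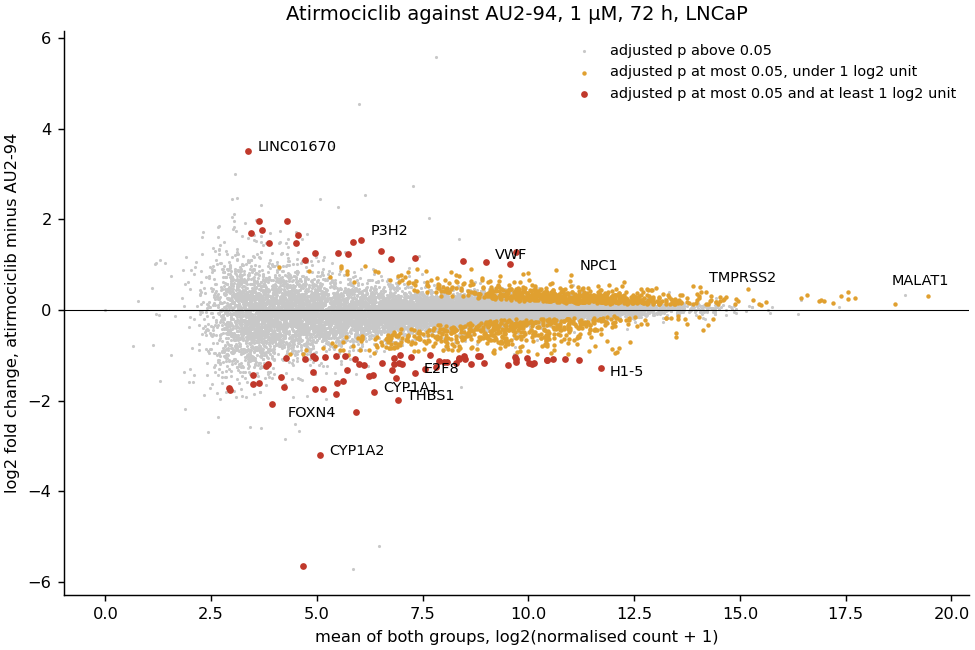
Difference between the agents for each of the 16341 tested genes (y axis, log2 fold change, atirmociclib minus AU2-94) against the mean level of both groups (x axis, log2 of normalised count + 1). Red points are the 21 genes called higher and the 73 called lower, orange points passed the adjusted p with a smaller difference, and grey points did not pass. The labels mark genes named in the text, among them H1-5 and CYP1A2 below 0 and VWF above 0.

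Vehicle levels set the 2 directions apart. Of the 605 genes lower with atirmociclib, 451 were highest with vehicle, so that AU2-94 lay between vehicle and atirmociclib in the group means, while 117 had the vehicle mean between the agents and 37 had it below both. Of the 741 higher genes, 459 were lowest with vehicle, 222 had vehicle between the agents and 60 had it above both. For the majority in each direction, atirmociclib thus stood further from vehicle than AU2-94 did. The share of such positions over all tested genes, and under the other scalings, is not given here.

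The replication-dependent histone genes made up the largest block of called genes among the lists used here. Of 55 tested, 41 were lower and 1 was higher on the adjusted p, 14 were called lower, and the median difference was -0.81. H1-5, a linker histone gene (chr6:27866792-27867588), had normalised counts of 2020, 1908 and 1928 with atirmociclib, 4672, 4691 and 4931 with AU2-94, and 10804, 11190 and 11465 with vehicle. The groups did not overlap, and AU2-94 stood 2.44-fold above atirmociclib (log2 difference -1.29, SE 0.05, adjusted p = 2.74e-11). H2AC16, a core histone gene (chr6:27865317-27865798), was at 687, 664 and 650 with atirmociclib, 1495, 1526 and 1517 with AU2-94, and 3805, 3662 and 3820 with vehicle. The spread within each agent was small beside this difference (log2 difference -1.18, SE 0.07, adjusted p = 2.88e-09). H4C1, also called, was at 59.9, 69.7 and 54.8 with atirmociclib and 138, 153 and 173 with AU2-94 (log2 difference -1.32, adjusted p = 3.86e-05). H1-2, which codes for another linker histone, had means of 2882 ± 62.6 with atirmociclib and 5529 ± 150 with AU2-94 (SD, n = 3), a log2 difference of -0.94 (adjusted p = 2.88e-09).

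All histone families took part. The counts lower on the adjusted p were 3 of 4 for H1, 12 of 15 for H2A, 12 of 15 for H2B, 8 of 11 for H3 and 6 of 10 for H4, with family medians from -0.91 to -0.76. The exception was H4C16 on chromosome 12, which lies outside the histone cluster of chromosome 6 and was higher with atirmociclib, at 747, 857 and 862 against 647, 595 and 668 (log2 difference 0.37, adjusted p = 0.00703). H4C14 and H4C15 are identical over 1547 bases, so reads may be split between them. H4C14 was at 2518, 1306 and 3280 with atirmociclib and 5473, 6427 and 5086 with AU2-94, and H4C15 at 552, 2062 and 33.9 against 825, 199 and 1284, and neither passed the adjusted p (0.564 and 0.785). Both stay in the counts and medians of the list. Of the called genes, H2AC13 and H2AC14 share a stretch of 415 bases at 98.1% identity, and their separate values are uncertain for the same reason.

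The promoters of 5 called genes of this block and of the cell cycle are shown because the members moved together and because such promoters are known to carry shared elements. Each runs 5′ to 3′ from 250 bases before to 30 bases after the start in RefSeq (GRCh38.p14). Capitals mark CCAAT (bound by NF-Y), TTTGAA or TTCGAA (the cell cycle genes homology region, CHR), and TTTCCCGC, TTTCGCGC, TTTGCCGC or TTTGGCGC (E2F sites), searched on both strands. H1-5 lies at chr6:27867559-27867838 on the minus strand, H2AC16 at chr6:27865067-27865346 on the plus strand, CDCA3 at chr12:6851257-6851536 on the minus strand, KIF20A at chr5:138178862-138179141 on the plus strand and TYMS at chr18:657403-657682 on the plus strand.
H1-5: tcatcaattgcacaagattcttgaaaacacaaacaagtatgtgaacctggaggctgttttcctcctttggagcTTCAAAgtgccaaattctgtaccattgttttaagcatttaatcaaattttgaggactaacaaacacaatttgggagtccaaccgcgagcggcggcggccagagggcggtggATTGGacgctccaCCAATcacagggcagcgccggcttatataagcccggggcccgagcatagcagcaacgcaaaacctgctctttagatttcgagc
H2AC16: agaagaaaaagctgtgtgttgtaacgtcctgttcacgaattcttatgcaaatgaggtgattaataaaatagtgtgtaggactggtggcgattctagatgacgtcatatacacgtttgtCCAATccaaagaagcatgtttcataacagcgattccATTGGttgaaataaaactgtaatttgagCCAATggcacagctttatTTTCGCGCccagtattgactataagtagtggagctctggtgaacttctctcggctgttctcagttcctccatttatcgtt
CDCA3: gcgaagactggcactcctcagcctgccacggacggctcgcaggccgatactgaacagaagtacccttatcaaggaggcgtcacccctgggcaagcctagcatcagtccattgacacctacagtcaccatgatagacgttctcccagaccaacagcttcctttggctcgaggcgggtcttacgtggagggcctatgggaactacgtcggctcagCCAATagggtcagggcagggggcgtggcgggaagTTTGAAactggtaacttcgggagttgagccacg
KIF20A: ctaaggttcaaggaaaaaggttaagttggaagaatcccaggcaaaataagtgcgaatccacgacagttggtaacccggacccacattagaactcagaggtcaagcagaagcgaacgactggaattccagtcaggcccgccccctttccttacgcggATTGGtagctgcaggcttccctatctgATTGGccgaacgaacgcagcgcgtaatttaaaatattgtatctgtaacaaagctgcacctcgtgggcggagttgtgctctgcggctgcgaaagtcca
TYMS: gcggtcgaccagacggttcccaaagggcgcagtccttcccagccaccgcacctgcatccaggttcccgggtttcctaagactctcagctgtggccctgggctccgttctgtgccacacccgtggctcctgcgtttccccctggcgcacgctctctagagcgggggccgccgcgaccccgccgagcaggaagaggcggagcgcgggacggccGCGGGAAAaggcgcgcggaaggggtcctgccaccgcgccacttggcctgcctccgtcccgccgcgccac

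On either strand, CCAAT occurred 2 times in H1-5, which also held CHR letters, and 3 times in H2AC16, which also held an E2F site. CDCA3 held CCAAT and a CHR element close to its start. KIF20A held CCAAT in 2 places and TYMS an E2F site. The windows searched for counting ran on to 50 bases after the start. They were found for 51 of the 73 genes called lower and for 11643 of the 16341 tested, taking the first listed start of a gene. CCAAT was found in 54.9% of the genes called lower and in 37% of all tested genes. The CHR letters were found in 25.5% against 11.1%, and the E2F letters in 17.6% against 5.35%. The 11 histone genes with a window all held CCAAT, and 6 held an E2F site. Among the 33 genes called lower that were in none of the histone, mitosis and DNA replication lists, 36.4% held CCAAT, 24.2% CHR and 3.03% E2F. For the genes called higher, 12 windows were found, of which 5 held CCAAT, 1 held CHR and 0 held E2F. Neighbouring histone genes can share 1 promoter, so these windows are not independent, and a match describes the letters only.

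Mitotic genes were lower almost as widely as histone genes. Of 91 tested, 66 were lower and 1 was higher on the adjusted p, 5 were called, and the median difference was -0.53. CDCA3, which helps trigger mitotic entry, was at 319, 282 and 320 with atirmociclib, 680, 679 and 706 with AU2-94, and 1122, 1215 and 1180 with vehicle. This was a 2.24-fold difference with no overlap (log2 -1.16, SE 0.08, adjusted p = 2.45e-08). KIF20A, a kinesin of cytokinesis, was at 560, 538 and 457 with atirmociclib and 1146, 1109 and 1173 with AU2-94 (log2 -1.14, adjusted p = 1.87e-07), against 1557, 1879 and 1621 with vehicle. MKI67, the proliferation marker Ki-67, was at 3154, 2993 and 2991 with atirmociclib, 5732, 5920 and 5618 with AU2-94, and 9672, 9199 and 9766 with vehicle. Its difference of -0.92 stayed short of the fold that a call needs (adjusted p = 6.46e-09). MYBL2, which encodes B-MYB, differed by -0.79 (adjusted p = 5.55e-08). TOP2A, the topoisomerase that untangles chromosomes, was at 1208, 1373 and 1355 with atirmociclib and 2598, 2601 and 2525 with AU2-94, a difference of -0.97 (adjusted p = 1.86e-07). Among the genes called lower but named after their values were seen, the mitotic kinase gene AURKB differed by -1.03 and the chromatin protein gene HMGB2 by -1.11. CENPN, a centromere protein gene, was the exception, at 3229, 3507 and 3638 with atirmociclib and 2726, 2772 and 2813 with AU2-94 (log2 0.32, adjusted p = 0.00103). CENPN shares 716 exonic bases with ENSG00000261061 on its strand.

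DNA replication genes followed at smaller sizes. Of 65 tested, 30 were lower and 0 higher on the adjusted p, TYMS and the primase gene PRIM1 were called, and the median was -0.27. TYMS, the thymidylate synthase gene, was at 554, 492 and 570 with atirmociclib, 1037, 1155 and 1099 with AU2-94, and 1955, 2178 and 2052 with vehicle (log2 -1.03, SE 0.09, adjusted p = 2.81e-07). PCNA, the sliding clamp of DNA polymerases, was at 1181, 1222 and 1258 against 1867, 1848 and 1903 (log2 -0.62, adjusted p = 1.58e-06), and vehicle was above both at 3316, 3373 and 3220. TK1, thymidine kinase, had means of 1130 ± 23.8 and 1653 ± 87.5 (SD, n = 3; log2 -0.55, adjusted p = 6.31e-06). The helicase gene MCM3 differed least of those past the test, by -0.19 (adjusted p = 0.0384), and missed the threshold with the replicate block (0.0562) and without any of 5 of the 6 libraries, the exception being AU2-94 replicate 3 (up to 0.137). MCM2 had a difference of -0.17 that did not pass (adjusted p = 0.175). Of 44 genes of homologous recombination and the Fanconi pathway, 9 were lower and 0 higher, with a median of -0.24. BRCA1 differed by -0.54 (adjusted p = 8.36e-05), BRIP1, a helicase that works with it, by -0.59 (adjusted p = 0.00163), and UBE2T, the Fanconi ubiquitin-conjugating enzyme, by -0.44 (adjusted p = 0.00316). With equal totals, this pathway had 15 lower genes.

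Of 46 genes of the cell cycle engine, 18 were lower and 1 was higher on the adjusted p, and 2 were called lower. The called ones were E2F7 and E2F8, repressors of the E2F family that E2F itself induces. E2F8 was at 103, 78.8 and 78.3 with atirmociclib, 201, 244 and 243 with AU2-94, and 437, 435 and 487 with vehicle (log2 -1.40, SE 0.24, adjusted p = 7.65e-04). E2F7, named after its values were seen, differed by -1.12 (adjusted p = 0.0119) and lost the adjusted p without AU2-94 replicate 3 or atirmociclib replicate 1 (up to 0.056). CCNA2, the cyclin A gene of S phase and G2, was at 460, 488 and 424 with atirmociclib, 842, 849 and 767 with AU2-94, and 1458, 1539 and 1499 with vehicle (log2 -0.84, adjusted p = 1.53e-07). CDC25B, a phosphatase that activates cyclin-dependent kinases, differed by -0.49 (adjusted p = 7.41e-06). CDKN1A, which codes for the inhibitor p21, was lower too, at 1536, 1485 and 1586 with atirmociclib and 2350, 2218 and 2167 with AU2-94 (log2 -0.55, adjusted p = 2.13e-06), below the vehicle libraries at 2894, 3125 and 2810. E2F3 was higher by 0.26 (adjusted p = 0.00388).

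**Figure D2:**
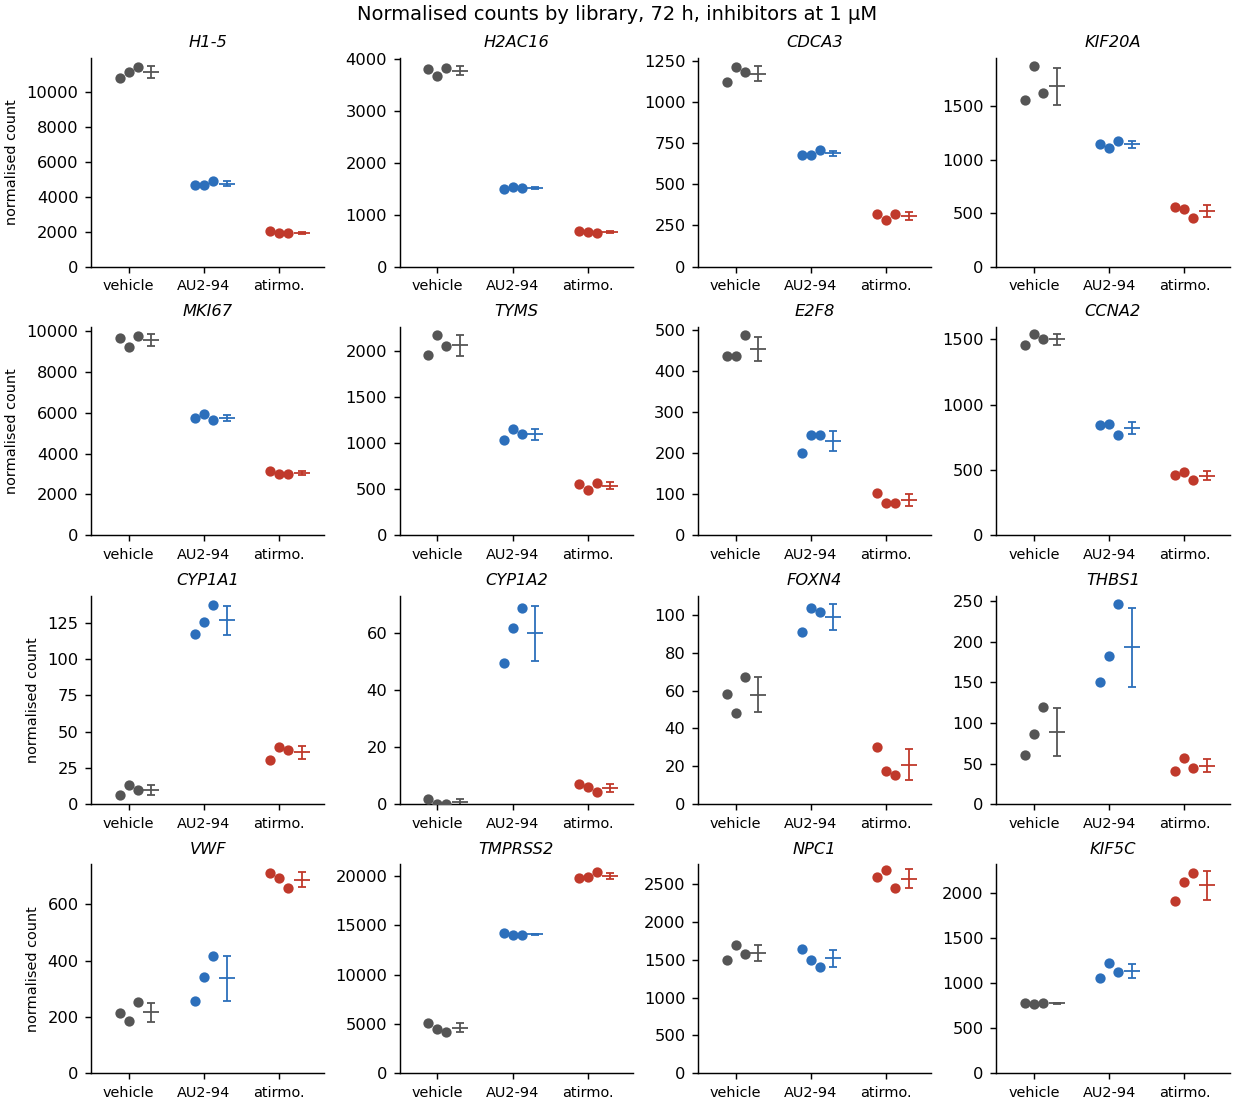
Normalised counts (y axis, linear from 0) of 16 genes in the 3 vehicle, 3 AU2-94 and 3 atirmociclib libraries of 72 h, inhibitors at 1 µM. Each point is 1 library, and the bar beside the points is the mean with its SD. Histone, mitosis and replication genes step down from vehicle to AU2-94 to atirmociclib, CYP1A1 and CYP1A2 peak with AU2-94, and TMPRSS2 climbs from vehicle to atirmociclib.

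The kinases, cyclins and readouts that the study discusses for these inhibitors formed a list of 24 genes, all tested. On the adjusted p, 8 were lower and 4 higher (1 or 2 higher without any 1 library, and 1 under equal totals or quantile normalisation), and the study's choice of these names is not independent of these samples. Genes for the targeted kinase complex did not pass the adjusted p. CDK4 was at 2001, 2151 and 1983 with atirmociclib and 1900, 1985 and 2063 with AU2-94, a log2 difference of 0.04 with a 95% confidence interval from -0.09 to 0.18. CDK6 was scarce, at 21.2 to 40.2 against 14.1 to 31.9, and its interval was wide, from -0.44 to 1.21. RB1 differed by -0.05 (interval -0.20 to 0.10) and CCND3, a D-type cyclin gene, by -0.11 (interval -0.26 to 0.05). CCND1, the cyclin D1 gene, differed by 0.14 (interval 0.03 to 0.24, adjusted p = 0.0983). It passed the adjusted p without atirmociclib replicate 2, but not when any other library of the contrast was left out. For the cyclin E gene CCNE1 the interval was -0.06 to 0.38, and for MYC, a growth regulator, -0.06 to 0.14.

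The kinase genes of mitosis and S phase in that list did differ. CDK1 was at 1572, 1586 and 1401 against 1978, 1755 and 2049 (log2 -0.34, adjusted p = 0.00398), and CDK2 at 751, 762 and 677 against 1021, 956 and 974 (log2 -0.43, adjusted p = 6.48e-04). E2F1 was at 427, 424 and 419 against 598, 659 and 630 (log2 -0.57, adjusted p = 4.41e-05), and FOXM1 at 1415, 1366 and 1391 against 2028, 2024 and 2040 (log2 -0.55, adjusted p = 1.37e-06). CCNB1, the cyclin B gene, differed by -0.25 (adjusted p = 0.0184), but lost the adjusted p without AU2-94 replicate 3, atirmociclib replicate 1 or atirmociclib replicate 3 (up to 0.085). The CDK-activating kinase subunits showed no detected difference, with intervals from -0.32 to 0.27 for CDK7, -0.14 to 0.07 for CCNH and -0.21 to 0.23 for MNAT1. CDK9, the elongation kinase, was at 1245, 1377 and 1344 with atirmociclib and 1180, 1128 and 1151 with AU2-94. Its groups did not overlap, and the difference of 0.20 missed the threshold at an adjusted p of 0.0811 and passed it with the replicate number as a block (0.0422). Its partner CCNT1 differed by 0.16 (adjusted p = 0.237). MTOR, a growth kinase gene, was higher by 0.19 (adjusted p = 0.0252), a call lost without any of 5 of the 6 libraries, the exception being AU2-94 replicate 2 (up to 0.119).

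Of 51 genes of RNA polymerase II elongation, 3 were higher and 4 lower on the adjusted p, with a median of 0.04. CDK19, a Mediator kinase gene, was higher by 0.33 (adjusted p = 1.45e-04), RTF1, an elongation factor gene, by 0.39 (adjusted p = 4.21e-04). SSRP1, which codes for a subunit of the histone chaperone FACT, differed by -0.32 (adjusted p = 3.55e-04) and had vehicle above both agents. Of 61 short-lived and immediate early transcripts, 8 were higher and 7 lower, and the median was 0.0053. JUN, which codes for a subunit of the transcription factor AP-1 (log2 0.35, adjusted p = 6.48e-04), RHOB (0.31, adjusted p = 1.35e-04) and the transcription factor gene KLF9 (0.29, adjusted p = 3.63e-04) were higher. HES1, a Notch target gene, was at 51.1, 41.2 and 42.5 against 91.9, 74.8 and 83.7 (log2 -0.88, adjusted p = 0.00345), and DUSP4, a MAP kinase phosphatase gene, differed by -0.56 (adjusted p = 0.00893). The higher count was 5 without atirmociclib replicate 2, and the lower count was 4 without AU2-94 replicate 3. SPRY4, an inhibitor of growth factor signalling and called higher, was at 18.8, 19.1 and 18.9 with atirmociclib, 6.2, 3.43 and 5.41 with AU2-94, and 31.7, 30.6 and 38.7 with vehicle (log2 1.76, adjusted p = 0.00196). Its levels are low, and vehicle lay above both agents.

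Outside the cell cycle lists, several genes with large differences had a higher mean with AU2-94 than with vehicle. CYP1A1, a cytochrome P450 gene induced through the aryl hydrocarbon receptor (chr15:74719542-74725536), was at 30.6, 39.2 and 37.2 with atirmociclib, 117, 126 and 137 with AU2-94, and 6.24, 13.2 and 9.7 with vehicle. AU2-94 stood 3.55-fold above atirmociclib (log2 -1.81, SE 0.37, adjusted p = 0.00388). CYP1A2, its neighbour on chromosome 15 (chr15:74748845-74756607), was at 6.93, 5.87 and 4.35 with atirmociclib and 49.5, 61.7 and 68.6 with AU2-94. Vehicle was at 1.92, 0 and 0, and AU2-94 exceeded atirmociclib 10.5-fold (log2 -3.19, SE 0.44, adjusted p = 9.70e-05). Both genes kept the adjusted p and the fold without each of the 6 libraries in turn. Of other genes known to respond to this receptor, NQO1 met the naming rule of its list, and the others were named after their values were seen. NQO1, a quinone reductase gene, was at 814, 799 and 823 with atirmociclib, 1035, 1051 and 1033 with AU2-94, and 1976, 2191 and 1840 with vehicle (log2 -0.36, SE 0.08, adjusted p = 0.0076), and kept the adjusted p without each library in turn. It was lower with atirmociclib, as were CYP1A1 and CYP1A2, but vehicle lay above both agents. TIPARP had a log2 difference of -0.0071 (interval -0.32 to 0.31) and AHRR of 0.35 (interval -0.46 to 1.15), and CYP1B1 was at 0 in all 6 libraries and was not tested.

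FOXN4, a forkhead transcription factor gene, was at 30.1, 17.4 and 15.3 with atirmociclib, 90.9, 104 and 101 with AU2-94, and 58.2, 48.3 and 67.2 with vehicle (log2 -2.24, SE 0.25, adjusted p = 8.31e-06). Here vehicle lay between the agents. THBS1, thrombospondin 1 of the extracellular matrix, was at 40.7, 56.4 and 44.7 against 151, 182 and 246 (log2 -1.99, SE 0.26, adjusted p = 4.28e-05), with vehicle at 61, 87 and 120. MYOD1, the myogenic transcription factor gene, was at 0 in the 3 vehicle libraries, 65.7, 41.1 and 75.1 with atirmociclib and 145, 157 and 206 with AU2-94. Its difference of -1.49 (adjusted p = 0.0423) lost the threshold without any 1 of the 6 libraries (up to 0.171). STARD13 differed by -1.46 (adjusted p = 0.012), lost without AU2-94 replicate 1 or atirmociclib replicate 3 (up to 0.076). CDKN2B-AS1, the antisense RNA of the INK4 locus, had means of 28.8 ± 4.05 and 74.0 ± 10.9 (SD, n = 3; log2 -1.33, adjusted p = 1.74e-04). WDR76 was at 124, 114 and 85.3 against 273, 224 and 295 (log2 -1.29, adjusted p = 0.00406).

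The genes called higher were fewer, lower in level and less stable. Of the 21, 8 kept the adjusted p without each library in turn, against 45 of the 73 called lower. Of the 10 with a mean of at least 50 over the 6 libraries, 8 have a gene symbol and met the rule for naming by size. VWF, which encodes a clotting factor of endothelium, was at 713, 694 and 658 with atirmociclib, 255, 343 and 415 with AU2-94, and 213, 184 and 252 with vehicle (log2 1.05, SE 0.19, adjusted p = 0.0014). C16orf87 was at 526, 448 and 466 against 240, 207 and 228 (log2 1.09, adjusted p = 0.00141). ARHGAP42 was at 136, 111 and 141 against 53.7, 56.2 and 45.2 (log2 1.30, adjusted p = 0.0013), and its vehicle libraries, at 108, 103 and 77.5, lay between. VWDE was at 54.2, 93.7 and 106 against 21.3, 41.1 and 24.8 (log2 1.51, adjusted p = 0.00523).

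P3H2, a collagen prolyl hydroxylase gene, was at 52.3, 147 and 96.6 against 26.6, 23.4 and 45.7 (log2 1.54, adjusted p = 0.009). Its call was lost without AU2-94 replicate 2 or atirmociclib replicate 2 (up to 0.063). HEPH, a copper-dependent ferroxidase gene, differed by 1.23 (adjusted p = 0.0159), lost without AU2-94 replicate 1 or 3 or atirmociclib replicate 2 or 3 (up to 0.070). The pseudogene CROCCP3 differed by 1.14 (adjusted p = 0.0431), lost without any 1 of the 6 libraries (up to 0.141). PCDH11Y, a protocadherin gene, differed by 1.28 (adjusted p = 6.67e-06), but it shares 5200 bases at 98.3% identity with PCDH11X, so reads of both copies may be mixed. PDGFRB, a growth factor receptor gene of stromal cells, was at 34.5 ± 13.1 against 10.3 ± 4.45 (SD, n = 3; log2 1.66, adjusted p = 0.0346). It missed the threshold with the replicate block (0.051) and without AU2-94 replicate 1 or 3 or atirmociclib replicate 1 or 3 (up to 0.160).

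In each of 2 called genes, 1 group did not exceed 3 in any of its libraries. LINC01670 was at 31.2, 12.5 and 10.3 with atirmociclib and 2.36, 0 and 0 with AU2-94, and lost its call without any of 5 libraries, all but AU2-94 replicate 1 (up to 0.150). ENSG00000271998 was at 0 in all 3 atirmociclib libraries and at 43.4, 51.7 and 51.5 with AU2-94, while vehicle was at 0, 0 and 66.3. Its exons share 2436 bases with ENSG00000260515 on the same strand, so the reads of both cannot be told apart, and its call was lost without any 1 of the 6 libraries (up to 0.0952).

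Several androgen-regulated and luminal genes were higher with atirmociclib, by small amounts. Of 75 androgen response genes, 21 were higher and 5 lower on the adjusted p, with a median of 0.07 and 0 called. TMPRSS2, a serine protease gene under androgen control, was at 19815, 19897 and 20397 with atirmociclib, 14187, 14074 and 14014 with AU2-94, and 5129, 4504 and 4205 with vehicle (log2 0.51, SE 0.07, adjusted p = 6.73e-05). KLK3 was at 51497, 53405 and 55194 against 48236, 46630 and 47444 (log2 0.17, adjusted p = 0.0273), with vehicle at 20972, 20799 and 19802. TMEFF2, a transmembrane protein gene of prostate, differed by 0.49 (adjusted p = 9.16e-07) and the secreted protease gene ADAMTS1 by 0.39 (adjusted p = 3.75e-07). The lower members included the chemokine receptor gene ACKR3 (-0.41, adjusted p = 0.035). Of 19 luminal lineage genes, 11 were higher and 0 lower, with a median of 0.17, among them FOLH1, which encodes prostate-specific membrane antigen (0.20, adjusted p = 5.85e-04), and STEAP1, a metalloreductase gene (0.37, adjusted p = 2.50e-05).

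The small size makes these groups sensitive to the scaling. With equal totals, the androgen response list had 11 higher and 11 lower genes and a median of -0.0038, with quantile normalisation 12 and 8, and the luminal list had 3 higher and 3 lower genes under either. KLK3 no longer passed under either scaling, and it also lost the adjusted p without any of 5 libraries, all but atirmociclib replicate 1 (up to 0.122). ACKR3 was lost without any of 5, all but atirmociclib replicate 1 (up to 0.154). The lower androgen response count was 3 with the replicate block and 0 to 2 without 1 library, whichever it was. The luminal count was 7 without AU2-94 replicate 2 or atirmociclib replicate 2. TMPRSS2, TMEFF2, ADAMTS1, STEAP1 and NPC1 passed under all alternatives run.

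**Figure D3:**
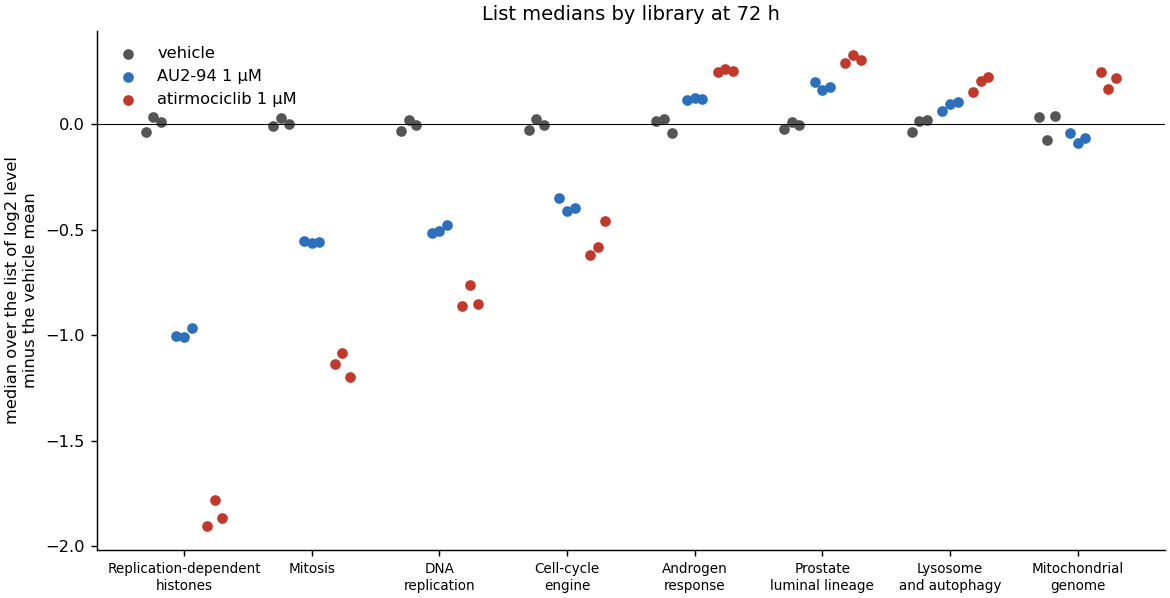
Median over each of 8 gene lists (x axis) of the log2 level of its genes minus their vehicle mean (y axis, log2 units), 1 point per library of 72 h: vehicle in grey, AU2-94 at 1 µM in blue and atirmociclib at 1 µM in red. For the histone list the atirmociclib libraries sit between -1.90 and -1.78 and the AU2-94 libraries between -1.01 and -0.97, while the androgen response list sits at 0.25 to 0.26 and at 0.12 to 0.13.

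Of 64 lysosome and autophagy genes, 17 were higher and 1 lower on the adjusted p, with a median of 0.12. NPC1, the lysosomal cholesterol transporter gene, was at 2604, 2686 and 2447 with atirmociclib, 1644, 1500 and 1412 with AU2-94, and 1493, 1703 and 1575 with vehicle (log2 0.77, SE 0.08, adjusted p = 6.54e-06). PSAP, which codes for the precursor of the saposins, differed by 0.32 (adjusted p = 4.46e-05), and GABARAPL1, an autophagosome protein gene, by 0.51 (adjusted p = 0.00111). GUSB, a lysosomal glucuronidase gene, was the lower one (-0.35, adjusted p = 0.00166). The counts were 9 higher and 2 lower with equal totals, where the median was 0.04, and the higher count was 11 with quantile normalisation or without AU2-94 replicate 2. Among 24 cholesterol synthesis genes, 3 were higher and 2 lower, among them FDFT1, squalene synthase (0.28, adjusted p = 0.00478). Without any 1 library, and with the replicate block, the lower count was 0. Among 25 fatty acid synthesis genes, 4 were higher and 1 lower, the last being the desaturase gene FADS1 at 1395, 1303 and 1620 against 2634, 2082 and 2012 (log2 -0.64, adjusted p = 1.70e-04). The higher count was 1 or 2 without any 1 library, and the counts were 2 higher and 3 lower with equal totals or quantile normalisation.

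The ER stress and ATF4 list parted into 2 directions, with 8 of 50 genes higher and 11 lower. The higher ones named by the rule were chaperone genes of the endoplasmic reticulum, HSPA5 (0.31, adjusted p = 6.31e-06), CALR (0.24, adjusted p = 1.69e-05) and HSP90B1 (0.30, adjusted p = 4.41e-05). HSPA5 was at 18579, 18115 and 18679 with atirmociclib and 14904, 15130 and 14725 with AU2-94. The lower ones named by the rule serve amino acid supply and mitochondrial gluconeogenesis. They were PCK2 (-0.55, adjusted p = 9.67e-06), SLC1A5, a glutamine transporter gene (-0.50, adjusted p = 1.39e-05), and PHGDH, the first enzyme gene of serine synthesis (-0.43, adjusted p = 5.80e-04). SLC1A5 was at 1199, 1224 and 1149 with atirmociclib, 1708, 1670 and 1673 with AU2-94, and 3494, 3940 and 3615 with vehicle. The lower count was 7 without AU2-94 replicate 1 or 2 or atirmociclib replicate 1 or 3. Of 45 p53 targets, 4 were higher and 7 lower. DDB2, a DNA damage recognition gene, was at 267, 278 and 317 against 514, 525 and 506 (log2 -0.84, adjusted p = 1.84e-05), and TP53INP1, an inducer of autophagy and cell death, was higher by 0.45 (adjusted p = 1.21e-07). The lower count was 4 without AU2-94 replicate 1 or 2 or atirmociclib replicate 1 or 2, and the higher count was 2 without AU2-94 replicate 1 or 2 or atirmociclib replicate 2. With equal totals, 1 was higher and 9 lower, and with quantile normalisation 3 and 5.

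Transcripts of the mitochondrial genome were higher in 10 of 13 genes and lower in 0, with a median of 0.24. MT-CYB, the cytochrome b gene, was at 195363, 181569 and 191885 with atirmociclib and 139923, 161783 and 158880 with AU2-94 (log2 0.31, adjusted p = 0.00138). Their nuclear partners of the respiratory chain had 2 of 76 genes higher and 0 lower, with 1 higher without any 1 library except atirmociclib replicate 1. The mitochondrial count was 5 with equal totals and 1 with quantile normalisation, under which MT-CO3 turned from 0.24 to -0.032. Quantile normalisation gives all libraries the same values by rank, so it leaves the most abundant genes little room to differ. Cytosolic ribosomal protein genes had 6 of 79 higher, but 3 with the replicate block, 0 with equal totals and 1 to 3 without 1 library, whichever it was. Ribosome biogenesis genes had 1 of 70 higher and 2 lower, and 9 lower with equal totals. Without any 1 library the higher count was 0 and the lower count 0 to 2.

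Further lists had few genes past the adjusted p, or counts that changed between settings. Of 60 interferon and antigen presentation genes, OAS3, an antiviral oligoadenylate synthetase gene, was the only one past the test, at 258, 211 and 209 against 431, 400 and 422 (log2 -0.89, adjusted p = 1.40e-05). Of 52 hypoxia and glycolysis genes, 8 were lower and 1 was higher, with a median of -0.14. Groups did not overlap in 22 lower and 2 higher genes, against 12.7% and 15% of all tested genes. The list median minus the vehicle mean was 0.22 to 0.45 with atirmociclib and 0.48 to 0.56 with AU2-94. The lower count fell to between 0 and 6 when 1 library was left out. It was 0 without AU2-94 replicate 3, 6 without atirmociclib replicate 3 and 1 without any other. Of 38 drug metabolism and efflux genes, 4 were higher and 3 lower, the lower ones being CYP1A1, CYP1A2 and NQO1, a quinone reductase gene (-0.36, adjusted p = 0.0076). The higher count was 2 without AU2-94 replicate 3 or atirmociclib replicate 3. Of 24 NRF2 and metallothionein genes, 2 were higher and 2 lower, with SLC7A11, the cystine transporter gene, at -0.41 (adjusted p = 0.0032), but the higher count was 0 without any 1 library. Of 23 heat shock genes, 5 were higher and 0 lower, with a median of 0.11. The higher count was 2 without AU2-94 replicate 2, 3 without atirmociclib replicate 2 and 1 with equal totals. Of 37 genes of epithelial-mesenchymal transition and matrix, 5 were higher and 2 lower, among them THBS1 and LAMA3, a laminin gene, at 5684, 6443 and 5738 against 3640, 4027 and 3900 (log2 0.63, adjusted p = 6.63e-05). The higher count was 2 without AU2-94 replicate 2 or under either scaling. Of 16 BCL2 family genes 1 was higher and 1 lower, and neither passed without 1 library except for the higher one without atirmociclib replicate 1. Of 5 tested neuroendocrine genes TUBB3, a neuronal tubulin gene, was higher (0.63, adjusted p = 2.26e-05). Of 6 tested stromal and immune genes, VWF and PDGFRB were higher. Of 4 tested basal epithelial and 9 senescence-associated secretion genes, limma passed 0 in either direction, and 0 and 3 had an unadjusted p of at most 0.05.

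Gene length went with small differences only. In 4 equal bins by genomic span, the median log2 difference was -0.04 in the shortest bin and 0.01, 0.01 and 0.02 in the others. With genes of mean level at least 100 only, the shortest bin was at 0.01 and the longest at 0.03.

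The same contrast at 2 µM and 72 h used other libraries of both agents. There, 1814 genes were higher (11.1%) and 1427 lower (8.73%) on the adjusted p. Of the 605 genes lower at 1 µM, 592 had the same sign at 2 µM and 479 were also past the adjusted p there. Of the 741 higher, 731 had the same sign and 608 passed. Over all 16341 tested genes, 70.9% had the same sign at both doses. The histone list had a median of -1.24 at 2 µM and -0.81 at 1 µM, and the agent by dose interaction passed for 14 of its 55 genes. The mitosis list had a median of -0.82 at 2 µM and -0.53 at 1 µM, and the interaction passed for 4 of its 91 genes. CYP1A1 differed by -2.59 and CYP1A2 by -2.99 at 2 µM, FOXN4 by -2.99 and TMPRSS2 by 0.57. Of the 21 genes called higher at 1 µM, 17 had the same sign at 2 µM, to be read beside the 70.9% of all genes, and 6 passed. VWF differed by 0.11 and C16orf87 by 0.19 there (adjusted p = 0.74 and 0.54).

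Whether the difference between the agents itself changed with dose was tested as an interaction. It passed for 33 genes (0.202%), of which 27 had a more negative difference at 2 µM and 14 were replication-dependent histones. The count was 19 with the replicate block and 2 to 21 without 1 of the 12 libraries, with 2 without atirmociclib replicate 1 of 2 µM. For H1-5 the difference went from -1.29 to -1.94 (adjusted p = 6.20e-04) and for CCNA2 from -0.84 to -1.42 (adjusted p = 0.0267).

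At 24 h and 1 µM, 239 genes were higher (1.48%) and 510 lower (3.16%) with atirmociclib. Of the 605 genes lower at 72 h, 603 were tested at 24 h, 520 had the same sign and 267 passed there. For the 741 higher genes, 559 had the same sign and 73 passed. Over the 15849 genes tested at both times, 59.8% had the same sign. Of the 21 genes called higher at 72 h, 10 had the same sign at 24 h and 0 passed, with a median of -0.12. Among the 73 called lower, 71 were tested, 65 had the same sign and 30 passed, with a median of -0.98. The agent by time interaction passed for 321 genes (1.91%), with 256 more positive and 65 more negative at 72 h, and 207 genes without atirmociclib replicate 2 of 72 h. It passed for 22 of 55 histone genes, with list medians of -1.27 at 24 h and -0.81 at 72 h, and for 25 of 65 DNA replication genes, with medians of -0.68 and -0.27. H1-5 differed by -3.22 at 24 h and by -1.29 at 72 h (adjusted p of the interaction = 7.65e-11), CCNA2 by -1.91 and -0.84 (5.94e-05) and CDK1 by -1.16 and -0.34 (4.73e-05). FOXN4 went the other way, with -0.10 at 24 h and -2.24 at 72 h (0.00407), and the interaction also passed for HSPA5, CDKN1A and PCK2 (adjusted p of 4.73e-05, 1.89e-05 and 9.06e-05), which differed by -0.06, 0.28 and 0.01 at 24 h. For CYP1A1 and CYP1A2 the 24 h values were -0.56 and -0.72, and the interaction did not pass (0.426 and 0.0814).

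**Figure D4:**
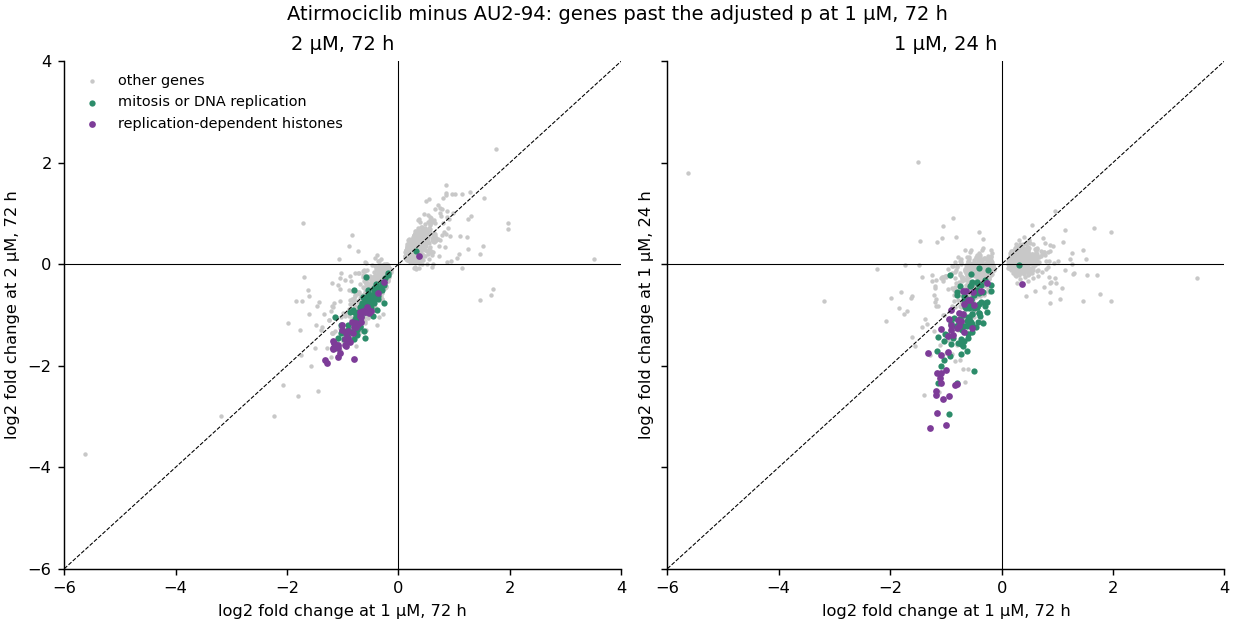
Log2 fold change of atirmociclib minus AU2-94 at 2 µM for 72 h (left, y axis) and at 1 µM for 24 h (right, y axis) against that at 1 µM for 72 h (x axes), for the genes past the adjusted p in the last. Purple points are replication-dependent histones, green points mitosis or DNA replication genes and grey points all others, and the dashed line marks equal values. Most histone points lie below the line in both panels, as in the list medians of -1.24 at 2 µM and -1.27 at 24 h against -0.81.

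Some of the named genes share exonic sequence with a neighbour on the other strand, and the sources used here do not state whether strand was used in counting. TYMS shares 967 bases with ENOSF1, CCNA2 254 with EXOSC9, FOXM1 782 with ITFG2, CDK4 1369 with TSPAN31, TMPRSS2 562 with MX1, NPC1 619 with RMC1 and CDKN2B-AS1 593 with CDKN2A. KIF20A shares 132 with BRD8 and THBS1 448 with FSIP1. FADS1 shares 490 with FADS2, which has a mean normalised count of 17940.5. Reads of such pairs cannot be told apart without strand. PRIM1 shares 139 bases with NACA (mean normalised count 11768) on the same strand, so strand would not separate their reads.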

How the data were processed

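Total RNA of LNCaP cells was sequenced in paired ends and, per the submitters' processing notes, aligned with STAR 2.6.1d to GRCh38 and normalised with DESeq2. The annotation release and the read counter are not given in the sources used here. The authors deposited 1 table of normalised counts (a signal: each library's counts divided by a scaling factor) for 29872 genes and 36 libraries. The values are not whole reads, so no count model was used.

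Genes with at least 10 normalised counts in at least 3 of the 72 h libraries (16341) were fitted with limma 3.58.1 in R 4.3.3 on log2(value + 1), with a trended prior and all 18 libraries of 72 h sharing 1 estimate of the spread. Fold changes on this scale understate the change of low genes. P-values were adjusted by Benjamini-Hochberg, and a call needs an adjusted p of at most 0.05 and a log2 difference of at least 1. Dose and time were tested as interactions. The script was tested on simulated data. The study's methods call the 3 libraries of a group biological replicates. Gene coordinates and overlaps come from GENCODE 44 (29856 genes matched), near-identical stretches from BLAST 2.17.0 (at least 100 bases at 98% identity). Promoters come from RefSeq.

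Members and lists were chosen with earlier results of these data known. The text names the 10 called genes with a symbol and the largest difference per direction (mean of at least 50, no group at or under 3 in every library), the genes the study discusses, up to 3 members per list and direction with the smallest adjusted p, and, as values, called genes with a group at or under 3. Others are named as chosen after their values were seen, or are exceptions or counterparts of these. 1 gene that the study discusses is not reported here.

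Replicate numbers appear under the label batch, and a fit with that block is therefore quoted where it changes a call. Deviations from the group means of same-numbered atirmociclib and AU2-94 libraries correlated at 0.05, -0.02 and 0.02. Alternatives were pseudocounts of 0.5 and 8, no filter, a mean of at least 100, quantile normalisation, equal totals, TMM factors, the block, other sets of libraries, no trend, GC and length correction, and leaving out each library.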

Additional observations from a re-analysis of the deposited data

Results flagged for a closer look

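The difference between atirmociclib and AU2-94 itself differed between doses in 33 genes and between time points in 321 genes, by interaction tests in limma at an adjusted p of at most 0.05. Among the genes named by size or discussed by the study, the change from 1 to 2 µM at 72 h was -0.66 on the log2 scale for H1-5 and -0.58 for CCNA2. The change from 24 to 72 h at 1 µM was positive, meaning a smaller deficit with atirmociclib at 72 h, for H1-5 (1.94), CCNA2 (1.07), CDK1 (0.82), TK1 (0.59) and E2F1 (0.51). It was also positive for VWF (1.75), which had the opposite sign at 24 h. It was negative for FOXN4 (-2.14) and STARD13 (-1.91). Seeding density differed between the time points, and its part was not tested.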

How the results depend on the processing

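The 73 genes called lower became 39 and the 21 called higher became 5 among genes with a mean of at least 100, where fewer genes were tested. Leaving out 1 library gave 54 to 61 called lower and 8 to 22 called higher, and 412 to 458 lower and 466 to 534 higher on the adjusted p alone. Equal totals gave 335 higher and 1063 lower on the adjusted p, against 741 and 605, and lower genes made up 76% in place of 44.9%. Among calls, lower genes made up 77.7%, 65.1% with quantile normalisation and 88.6% with a mean of at least 100; the cause was not tested. The replicate block left 20 higher and 73 lower calls. The 33 genes of the dose interaction became 19 with the replicate block, 15 with only the groups compared, 7 with all 36 libraries and 3 with no trend, and 2 to 21 without 1 library. The 321 genes of the time interaction became 207 to 328 without 1 library and 300 with the block. Of the genes named by rule and past the adjusted p, MT-CO3 changed sign with quantile normalisation (-0.032), a scaling that leaves the most abundant genes little room to differ. Its highest limma adjusted p over all alternatives was 0.71. CDK4, CDK7, MNAT1 and MYC, which did not pass, also changed sign under some alternatives. Library depth is unknown, so no floor on counts can be given.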
